A study of Mus musculus with 10 samples.

Results

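Protamine-low round spermatids made up 2016 of the 22360 barcodes kept from 2 droplet single-cell RNA samples of mouse testis, 795 of 8098 in replicate 1 and 1221 of 14262 in replicate 2. They were chosen by their transcripts: at least 1000 UMIs (unique molecular identifiers, which count captured mRNA molecules) from 500 or more genes, with no more than 10% of UMIs from mitochondrial genes. At least 5 UMIs had to come from the 4 markers Acrv1, Spaca1, Spaca7 and Tex36 together, at most 1 from Ccna1 (cyclin A1, a gene of late meiotic prophase) and at most 1 from the Sertoli cell cystatins Cst9 and Cst12. Fewer than 1% could come from the protamine genes Prm1 and Prm2 and the transition protein genes Tnp1 and Tnp2 together. Values of these 11 genes describe the choice and are no finding.

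Both single-cell samples came from whole testes of Smarca5 fl/delta; Ddx4-Cre+ mice (conditional knockout, cKO), in which Cre is driven by the germ cell gene Ddx4 and acts on the floxed copy of Smarca5, the ATPase of the ISWI chromatin remodelers. No single-cell sample of another genotype was analysed here, so nothing below compares genotypes in spermatids. The series also held ATAC-seq peak lists, which mark accessible DNA, from sorted cells at earlier steps of spermatogenesis: cKIT+ cells of cKO mice and of wild type C57BL6 mice, and cells with 4C DNA content (labelled as pachytene spermatocytes) of both genotypes, with 2 libraries in each of these 4 groups. The labels used here give no age and do not say whether replicates came from separate animals, so p values measure only the spread between the 2 samples.

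Round spermatids are the haploid cells left by the meiotic divisions. They form the acrosome, the enzyme-filled cap that sperm need to pass the egg's coat, and begin to assemble the flagellum while transcription is still broad. The mRNAs of transition proteins and protamines accumulate as round spermatids mature and are stored; the proteins replace histones later, when the nucleus condenses.

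The 4 genes that defined the cells encode acrosomal matrix and membrane proteins (Acrv1, Spaca1, Spaca7) and a testis protein of less defined function (Tex36). Their promoters are shown because the rule rests on these genes. Peaks at the starts of Acrv1, Spaca7 and Tex36 were present in some ATAC libraries and not in others. Each line runs from 250 bases before to 50 after the start annotated by RefSeq on GRCm38.p6, 5′ to 3′ on the gene's strand. Capitals mark TGACG (or CGTCA, its reverse complement), the core of the cAMP response element to which the spermatid activator CREM binds; it was searched on both strands, and no other motif was searched.
Acrv1 (chr9:36692970-36693269, plus strand): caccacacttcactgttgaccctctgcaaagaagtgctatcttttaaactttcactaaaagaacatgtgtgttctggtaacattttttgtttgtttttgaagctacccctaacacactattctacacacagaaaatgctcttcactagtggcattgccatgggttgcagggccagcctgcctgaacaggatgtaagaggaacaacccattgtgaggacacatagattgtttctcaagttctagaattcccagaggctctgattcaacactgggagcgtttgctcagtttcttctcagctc
Spaca1 (chr4:34050016-34050315, minus strand): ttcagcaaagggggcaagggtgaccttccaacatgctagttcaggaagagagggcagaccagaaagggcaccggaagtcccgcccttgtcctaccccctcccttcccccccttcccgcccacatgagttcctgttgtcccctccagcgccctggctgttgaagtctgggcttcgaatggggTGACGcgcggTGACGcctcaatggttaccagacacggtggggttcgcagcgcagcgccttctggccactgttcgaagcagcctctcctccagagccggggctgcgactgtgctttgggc
Spaca7 (chr8:12572786-12573085, plus strand): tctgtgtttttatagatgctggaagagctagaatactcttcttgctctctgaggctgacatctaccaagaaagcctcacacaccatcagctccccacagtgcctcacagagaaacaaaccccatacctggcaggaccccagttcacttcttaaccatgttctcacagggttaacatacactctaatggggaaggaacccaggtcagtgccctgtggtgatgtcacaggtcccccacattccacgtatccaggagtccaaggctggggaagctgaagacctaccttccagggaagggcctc
Tex36 (chr7:133602066-133602365, minus strand): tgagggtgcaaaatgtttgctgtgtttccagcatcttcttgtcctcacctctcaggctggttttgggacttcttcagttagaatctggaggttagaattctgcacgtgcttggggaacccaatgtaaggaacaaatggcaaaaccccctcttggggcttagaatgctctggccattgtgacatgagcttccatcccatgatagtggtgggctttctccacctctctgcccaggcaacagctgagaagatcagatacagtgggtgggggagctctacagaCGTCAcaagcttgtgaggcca
The core stood 2 times before the Spaca1 start, its first bases at -69 and -59, and 1 time after the Tex36 start, at 29. It was in none of the 300 bases shown for Acrv1 and Spaca7. Of 32851 RefSeq mouse promoters of the same length, 20.8% held it on either strand.

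Spaca1 had a peak within 500 bases of its start in all 8 ATAC libraries, with the authors' fold enrichments between 3.79 and 9.06. Spaca7 and Tex36 had a peak in both 4C-sorted cKO libraries and in replicate 1 of the 4C-sorted wild type, and in no cKIT+ library. Acrv1 had a peak only in replicate 1 of cKIT+ cKO cells. Prm2 and Tnp2 had none in any library, whereas Tnp1 had a peak in every library except replicate 2 of cKIT+ wild type. Prm1 had a peak in both cKIT+ wild-type libraries and in replicate 2 of cKIT+ cKO, 4C-sorted wild-type and 4C-sorted cKO cells. Read depth of these libraries is unknown, and a missing peak does not show closed chromatin.

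Protamine transcripts were not absent from the cells. Medians of 0.189% and 0.139% of UMIs came from the 4 protamine and transition protein genes (replicate 1 and replicate 2), which is a median of 10 UMIs a cell in both samples, and only 2 and 9 cells had none. To judge free RNA, which enters all droplets of a testis suspension, barcodes rich in Sertoli cell transcripts (at least 5 UMIs of Cst9 and Cst12, and fewer than 1% protamine UMIs) were taken as cells that should lack spermatid genes; there were 112 and 330, with median depths of 4850 and 3940.5 UMIs against 5354 and 7816 in round spermatids. This class was defined after the data had been seen. Their median protamine share was 0.137% and 0.122%, and a Prm1 UMI was present in 88.8% and 80.6% of round spermatids, against 85.7% and 83.0% of Sertoli-marker barcodes. Tnp1 was detected in 88.9% and 86.4% of round spermatids, against 75% and 62.4% of Sertoli-marker barcodes, and Tnp2 in 83.5% and 81.4% against 76.8% and 67.6%. Both classes were limited to under 1% of these UMIs, so low shares in each follow from the choice and show nothing further. Since most cells held such transcripts, they are called protamine-low and not protamine-free.

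The 4 markers are given as a description, since the rule required them. Acrv1 was detected in 90.2% and 92.9% of round spermatids and in 18.8% and 13.0% of Sertoli-marker barcodes; Spaca1 in 96.5% and 96.6% against 23.2% and 28.2%; Tex36 in 94.6% and 97.0% against 18.8% and 16.1%; Spaca7 in 83.1% and 89.7% against 17.9% and 14.8%. The median cell had 14 and 23 marker UMIs. Near the limits, 69 and 73 cells had exactly 5 marker UMIs and 111 and 90 otherwise eligible barcodes had 4, while 214 and 438 cells had 1 Ccna1 UMI and 88 and 234 barcodes were left out for having 2. At the protamine limit, 8 and 32 cells lay between 0.9% and 1%, and 13 and 24 barcodes between 1% and 1.1%. At the Cst9 and Cst12 limit, 104 and 151 cells had 1 UMI and 25 and 34 barcodes had 2.

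**Figure D1:**
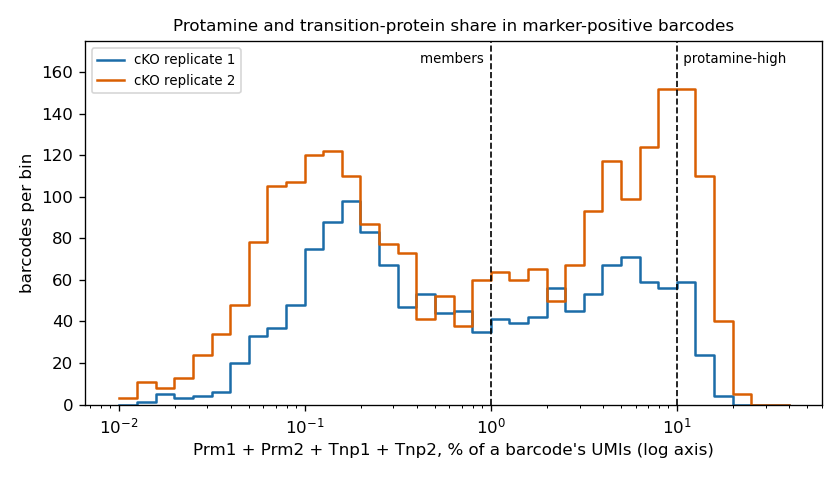
Number of barcodes (y axis) by the share of their UMIs from Prm1, Prm2, Tnp1 and Tnp2 (x axis, log scale) among barcodes that meet the other limits, for each cKO sample. Round spermatids lie left of the line at 1%, and both samples have a mode below 0.3% and another above 3%, with fewer barcodes around the line.

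Neighbouring classes were cut for comparison. Ccna1-high spermatocytes (at least 5 Ccna1 UMIs, fewer than 1% protamine UMIs, at most 1 UMI of Cst9 and Cst12) numbered 112 and 588. Spermatids that met every limit except for a protamine share of 1 to under 10% numbered 529 and 891 (intermediate spermatids), and those with 10% or more numbered 87 and 307 (protamine-high spermatids). Round spermatids summed to 5565447 and 12380170 UMIs. Median depths were 14962.5 and 20169.5 UMIs in Ccna1-high spermatocytes and 6985 and 11452 in intermediate spermatids. Round spermatids were 9.82% (exact 95% interval 9.18 to 10.49) and 8.56% (8.11 to 9.03) of kept barcodes; intervals here cover counting error only. Scrublet called 11.4% and 13.0% of them doublets, against 8.46% and 9.32% of all kept barcodes; these were kept, and values without them are given where a call changed. The libraries shared 32 kept barcodes, none of them a round spermatid. Because the classes were cut on other genes of the same cells, large shares of all genes differ between them, and the share of all tested genes that was called is printed as the measure to read each list against.

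Of the 20 genes with the highest level in round spermatids, 14 were above Sertoli-marker barcodes in both samples, against 2840 (17.7%) of the 16069 genes tested between the classes. Ldhc, the testis lactate dehydrogenase, stood at 6452 and 6963 CPM (counts per 1e6, that is the gene's UMIs scaled to 1e6 summed UMIs of the class), against 8070 and 9238 CPM in Ccna1-high spermatocytes, 5717 and 3815 CPM in Sertoli-marker barcodes and 6243 CPM in free RNA (15453 barcodes of replicate 1 with 10 to 100 UMIs). Its level in free RNA was close to that in round spermatids. Mlf1 stood apart, at 2792 and 3079 CPM in round spermatids, against 1359 and 1567 CPM in Ccna1-high spermatocytes and 954 and 682 CPM in Sertoli-marker barcodes. H3f3b, which encodes the replacement histone H3.3, had 2323 and 2841 CPM in round spermatids and 935 and 1079 CPM in Ccna1-high spermatocytes, but 3019 and 2098 CPM in Sertoli-marker barcodes. In what follows a gene is said to be above background where the exact 95% interval of its level in round spermatids lay above that in Sertoli-marker barcodes in both samples; genes that Sertoli cells themselves express fail this even when spermatids express them.

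Against Ccna1-high spermatocytes, round spermatids had far more mRNA for acrosome, tail-sheath and kinase genes and far less for the machinery of the meiotic divisions. With edgeR, 6095 of 16069 tested genes were higher (37.9%) and 5770 lower (35.9%) at an adjusted p under 0.05. Of the genes that were higher, 2349 (38.5%) were above background, against 17.7% of all tested genes and 4.19% of those that were lower. By at least 3 on the log2 scale 961 genes were higher and 56 lower.

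Of 29 acrosome and gamete fusion genes outside the rule, 19 were higher and 8 lower in round spermatids, and all 19 were above background; the median log2 fold change was 2.12, against 0.01 over all genes. Spam1, the sperm surface hyaluronidase, had 151 and 134 CPM in round spermatids, against 15.9 and 22.2 CPM in Ccna1-high spermatocytes (log2 fold change 2.63 ± 0.18 SE, n = 2 samples, edgeR adjusted p = 9.4e-37). Hyal5, a hyaluronidase gene of the same family, had 97.7 and 100 CPM in round spermatids and 11.9 and 14.0 CPM in Ccna1-high spermatocytes. Spaca6, which sperm need to fuse with the egg, had 45.5 and 70.2 CPM in round spermatids, against 3.40 and 8.56 CPM in Ccna1-high spermatocytes. Sppl2c, an intramembrane protease of spermatids, had 31.4 and 45.4 CPM in round spermatids and 1.13 and 4.17 CPM in Ccna1-high spermatocytes. For each of these genes both round spermatid sums lay above both spermatocyte sums. Acr, which encodes the protease acrosin, and Zpbp did not pass the test.

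Genes of the fibrous sheath, outer dense fibres and sperm head cytoskeleton moved together: 25 of 28 were higher and 1 lower, with a median of 2.21. Akap4, the main anchoring protein of the fibrous sheath, had 186 and 185 CPM in round spermatids, against 18.7 and 20.6 CPM in Ccna1-high spermatocytes (3.11 ± 0.16, edgeR adjusted p = 5.8e-51). Actrt2, an actin-related protein, had 352 and 653 CPM in round spermatids and 27.2 and 84.3 CPM in Ccna1-high spermatocytes. Ccin, which encodes the head protein calicin, had 49.2 and 78.6 CPM in round spermatids, against 3.40 and 7.98 CPM in Ccna1-high spermatocytes. Of 10 testis kinase genes 9 were higher and 1 lower. Tssk2, a testis-specific serine kinase, had 607 and 931 CPM in round spermatids and 91.2 and 179 CPM in Ccna1-high spermatocytes. Camk4, a kinase that acts in histone exchange, had 85.3 and 70.1 CPM in round spermatids, against 6.80 and 11.4 CPM in Ccna1-high spermatocytes. Tssk6 had 42.4 and 87.7 CPM in round spermatids, against 5.10 and 11.1 CPM in Ccna1-high spermatocytes, and was not above background, with 30.3 and 35.2 CPM in Sertoli-marker barcodes.

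Of 23 genes for chromatin change in spermatids 10 were higher and 7 lower, shares near those of all genes, with a median of 0.82; the genes below are those with the largest changes. H1fnt, the linker histone of the condensing spermatid nucleus, had 533 and 718 CPM in round spermatids, against 38.0 and 66.6 CPM in Ccna1-high spermatocytes and 85.5 and 77.1 CPM in Sertoli-marker barcodes (3.40 ± 0.14, edgeR adjusted p = 6.3e-67). Cdyl, a chromodomain protein, had 237 and 217 CPM in round spermatids and 14.7 and 21.9 CPM in Ccna1-high spermatocytes. Chd5, a remodeler needed for histone exchange in mouse spermatids, had 77.8 and 44.7 CPM in round spermatids, against 5.10 and 5.90 CPM in Ccna1-high spermatocytes. H2al2a, a histone variant from a multicopy family whose reads can be split between copies, had 104 and 127 CPM in round spermatids and 9.63 and 12 CPM in Ccna1-high spermatocytes.

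Among 19 transcription regulators of spermatids, 9 were higher and 7 lower, which is close to the background of all genes. Fhl5, the coactivator of CREM also named ACT, had 305 and 415 CPM in round spermatids, against 25.5 and 44.9 CPM in Ccna1-high spermatocytes (3.16 ± 0.15, edgeR adjusted p = 3.1e-58). Creb3l4, a membrane-bound CREB family factor, had 522 and 674 CPM in round spermatids and 86.7 and 129 CPM in Ccna1-high spermatocytes, and Sox5 had 393 and 344 CPM against 51.0 and 74.6 CPM. Mybl1, the regulator of meiotic transcription, was lower, with 26.6 and 12.5 CPM in round spermatids, against 79.3 and 40.1 CPM in Ccna1-high spermatocytes. Tbpl1, the TBP-like factor that mouse spermiogenesis needs, was also lower, with 843 and 713 CPM in round spermatids and 1545 and 1486 CPM in Ccna1-high spermatocytes.

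The meiotic division list showed the clearest fall: 29 of 31 genes were lower and 1 higher, with a median of -1.71. Cdk1, the kinase that drives the divisions, had 24.6 and 17.2 CPM in round spermatids, against 194 and 180 CPM in Ccna1-high spermatocytes (-3.36 ± 0.17, edgeR adjusted p = 8.8e-55). Aurka, a spindle kinase, had 64.5 and 57.3 CPM in round spermatids and 407 and 381 CPM in Ccna1-high spermatocytes, and Aurkb 5.93 and 3.55 CPM against 44.8 and 35.4 CPM. Pou5f2 had the lowest fold change among genes of at least 100 CPM, with 16.5 and 10.1 CPM in round spermatids, against 230 and 192 CPM in Ccna1-high spermatocytes (-4.20 ± 0.18, edgeR adjusted p = 1.9e-67). Cdk1, Aurka and Pou5f2 were all lower in round spermatids than in Sertoli-marker barcodes, where Cdk1 had 139 and 130 CPM. All 13 pachytene and diplotene markers outside the rule were lower too, 14 of 21 piRNA pathway genes were lower against 2 higher, and 22 of 44 axoneme genes were lower against 8 higher. Zmynd10, an assembly factor of dynein arms, had 58.8 and 44.3 CPM in round spermatids and 282 and 237 CPM in Ccna1-high spermatocytes. Tekt5 and Ropn1, both of the sperm tail, went the other way: Ropn1 had 1008 and 1394 CPM in round spermatids, against 135 and 229 CPM in Ccna1-high spermatocytes. In the RNA storage list 11 of 22 genes were lower and 4 higher; Pabpc6 had 102 and 41.2 CPM in round spermatids, against 585 and 285 CPM in Ccna1-high spermatocytes, while Samd4, a translational repressor, had 403 and 544 CPM against 53.8 and 90.5 CPM.

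**Figure D2:**
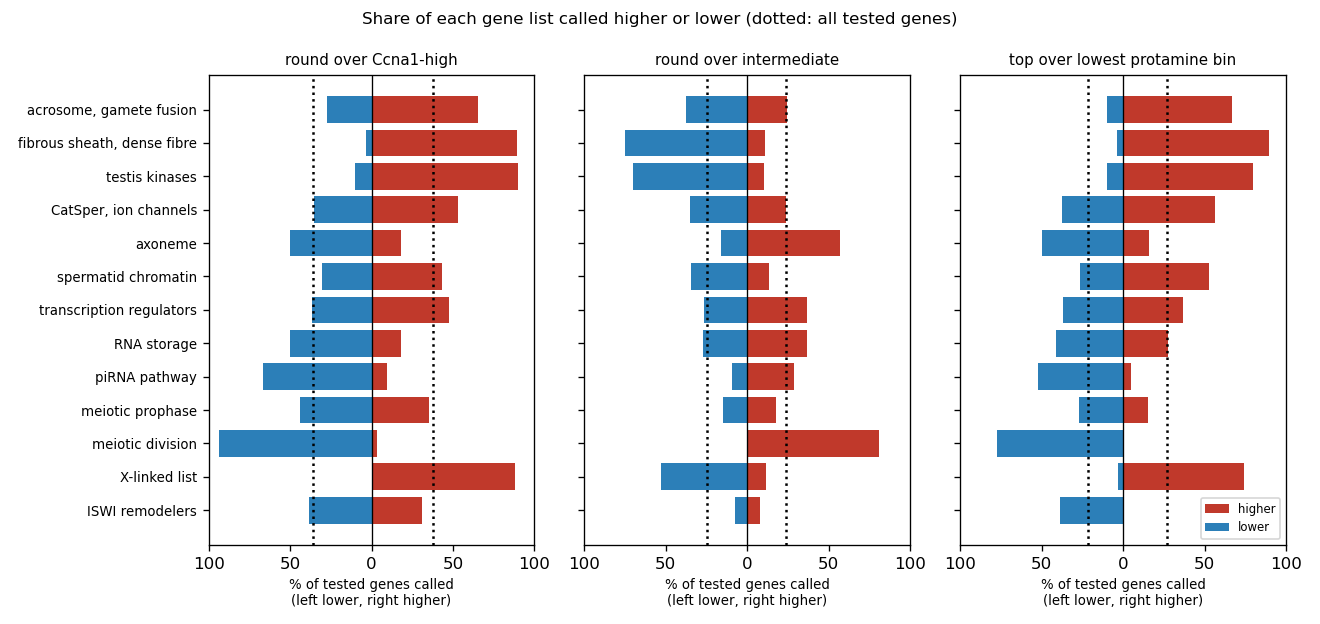
Percent of the tested genes of each list called higher (red, right) or lower (blue, left) in round spermatids than in Ccna1-high spermatocytes, in round spermatids than in intermediate spermatids, and in round spermatids of the top protamine bin than of the lowest; dotted lines mark the same percent over all tested genes, and the acrosome list of the last panel includes Acrv1 of the rule. Meiotic division genes lie past the line to the left in the first panel (29 of 31 lower) and to the right in the middle panel (25 of 31 higher), and fibrous sheath genes show the opposite (25 and 3 of 28 higher).

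Some lists that name meiosis held genes that rose. Of 34 meiotic prophase genes 12 were higher and 15 lower, and 3 of the higher genes were above background. Prdm9, which places recombination hotspots, had 40.6 and 34.6 CPM in round spermatids, against 1.13 and 2.88 CPM in Ccna1-high spermatocytes and 5.52 and 11 CPM in Sertoli-marker barcodes (3.68 ± 0.25, edgeR adjusted p = 2.4e-35). Syce2, a central element of the synaptonemal complex, had 376 and 480 CPM in round spermatids, against 55.5 and 69.0 CPM in Ccna1-high spermatocytes and 174 and 168 CPM in Sertoli-marker barcodes. Sycp3, of the lateral element, was lower, with 182 and 105 CPM in round spermatids and 413 and 347 CPM in Ccna1-high spermatocytes. Flt1, a VEGF receptor used as an endothelial marker, had 109 and 149 CPM in round spermatids, against 7.37 and 11.3 CPM in Ccna1-high spermatocytes and 13.8 and 14.3 CPM in Sertoli-marker barcodes. Counts from a 3′ assay do not tell a full-length transcript from a short form of these genes.

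Against intermediate spermatids, the next step of protamine accumulation, round spermatids had more division and axoneme mRNA and less mRNA for late spermatid products. Of the same 16069 genes 3799 were higher (23.6%) and 4002 lower (24.9%); 3897 of these 7801 calls held when the sample was not used as a replicate block. Without the TMM scaling the higher share of calls was 67.8%, against 48.7% with it, and the median log2 fold change of all genes was 0.38 without TMM and 0.08 with it. Large falls were more frequent than large rises: 1299 genes were lower by at least 2 on the log2 scale and 209 higher.

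Division genes stayed above the level of the later cells: 25 of 31 were higher in round spermatids and none lower. Of these 25 genes 2 were above background, against 18.6% of all genes called higher here and 17.7% of all tested genes. Plk1, a kinase of mitotic and meiotic entry, had 44.0 and 40.4 CPM in round spermatids, against 8.64 and 6.44 CPM in intermediate spermatids (2.23 ± 0.20, edgeR adjusted p = 5.2e-24), and 38.6 and 34.8 CPM in Sertoli-marker barcodes. Incenp, the scaffold of the chromosomal passenger complex, had 22.1 and 15.5 CPM in round spermatids and 6.75 and 2.12 CPM in intermediate spermatids, and Bub1, of the spindle checkpoint, had 56.6 and 38.4 CPM against 17.1 and 8.88 CPM. None of these 3 genes was above background. Of 44 axoneme genes 25 were higher, 9 of them above background, and 7 lower. Ift172, of the intraflagellar transport complex, was among the lower, with 83.2 and 110 CPM in round spermatids and 346 and 498 CPM in intermediate spermatids. Foxj1, the regulator of motile cilia, had 37.7 and 25.1 CPM in round spermatids, against 8.86 and 4.73 CPM in intermediate spermatids and 4.14 and 6.67 CPM in Sertoli-marker barcodes. Tdrd7, of the chromatoid body, had 125 and 77.7 CPM in round spermatids and 42.4 and 19.6 CPM in intermediate spermatids.

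The fall on the late side was broad. Of 28 fibrous sheath genes 21 were lower and 3 higher, of 10 testis kinases 7 were lower and 1 higher, and of 17 late spermatid markers 15 were lower and 1 higher. Cabs1, a calcium-binding protein of the tail, had 208 and 237 CPM in round spermatids, against 1134 and 1085 CPM in intermediate spermatids (-2.62 ± 0.13, edgeR adjusted p = 8e-56). Tssk6 had 42.4 and 87.7 CPM in round spermatids and 355 and 650 CPM in intermediate spermatids. Fam71a had 8.44 and 6.30 CPM in round spermatids, against 214 and 258 CPM in intermediate spermatids (-5.35 ± 0.18, edgeR adjusted p = 1.4e-86), and Col20a1 had 10.2 and 7.51 CPM against 209 and 268 CPM. Neither was above background in round spermatids; Fam71a had 12.4 and 5.71 CPM in Sertoli-marker barcodes. Car2, a carbonic anhydrase, had 11 and 6.70 CPM in round spermatids and 169 and 161 CPM in intermediate spermatids. The 29 acrosome genes were split, with 7 higher and 11 lower, and their median changed sign with the scaling (-0.21 with TMM and 0.09 without).

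Of 16069 tested genes 1174 were called higher in round spermatids than in both neighbouring classes, 126 of them at 100 CPM or more with the same sign in both samples. Taken singly, 37.9% of tested genes were higher over Ccna1-high spermatocytes and 23.6% over intermediate spermatids. Whether the overlap exceeds what these 2 shares alone would give was not tested. By the rule that ranks genes on the smaller of their folds over both neighbours, Spam1 came first: its 151 and 134 CPM stood against 15.9 and 22.2 CPM in Ccna1-high spermatocytes, 27.2 and 21.8 CPM in intermediate spermatids and 14.8 and 10.4 CPM in protamine-high spermatids (2.26 ± 0.16 over intermediate spermatids, edgeR adjusted p = 8.2e-33). Il31, which encodes a cytokine known from T cells, had 407 and 509 CPM in round spermatids, against 74.2 and 121 CPM in Ccna1-high spermatocytes, 104 and 94.5 CPM in intermediate spermatids, 54.0 and 36.9 CPM in protamine-high spermatids and 49.7 and 59.5 CPM in Sertoli-marker barcodes. Gip, the precursor of an incretin hormone, had 94.2 and 119 CPM in round spermatids, against 14.2 and 23.1 CPM in Ccna1-high spermatocytes, 30.2 and 22.2 CPM in intermediate spermatids and 5.40 and 3.46 CPM in protamine-high spermatids. Plin2, a lipid droplet coat protein, had 126 and 131 CPM in round spermatids, against 33.4 and 34.7 CPM in Ccna1-high spermatocytes, 46.6 and 27.9 CPM in intermediate spermatids and 9.45 and 4.54 CPM in protamine-high spermatids. Zfp804b had 148 and 74.9 CPM in round spermatids, against 17.6 and 6.97 CPM in Ccna1-high spermatocytes, 37.7 and 20.8 CPM in intermediate spermatids and 8.10 and 7.56 CPM in protamine-high spermatids. All 5 were above background. Bri3, also of this group, was not: it had 381 and 612 CPM in round spermatids, and 226 and 574 CPM in Sertoli-marker barcodes.

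Within the kinase family, Tssk5 had the same profile, unlike Tssk2 and Tssk6, which were higher in later spermatids. Tssk5 had 29.8 and 29.9 CPM in round spermatids, against 3.40 and 5.25 CPM in Ccna1-high spermatocytes, 3.8 and 2.93 CPM in intermediate spermatids and 0 in both protamine-high sums (2.92 ± 0.23 over intermediate spermatids, edgeR adjusted p = 4.6e-28). The hyaluronidase pair also parted: Hyal5, with 97.7 and 100 CPM in round spermatids, did not pass the test against the 107 and 91.5 CPM of intermediate spermatids (-0.29 ± 0.15, edgeR adjusted p = 0.093). That miss does not show equal levels, since the gene was called lower after doublets were removed (-0.36) and after thinning (-0.47).

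**Figure D3:**
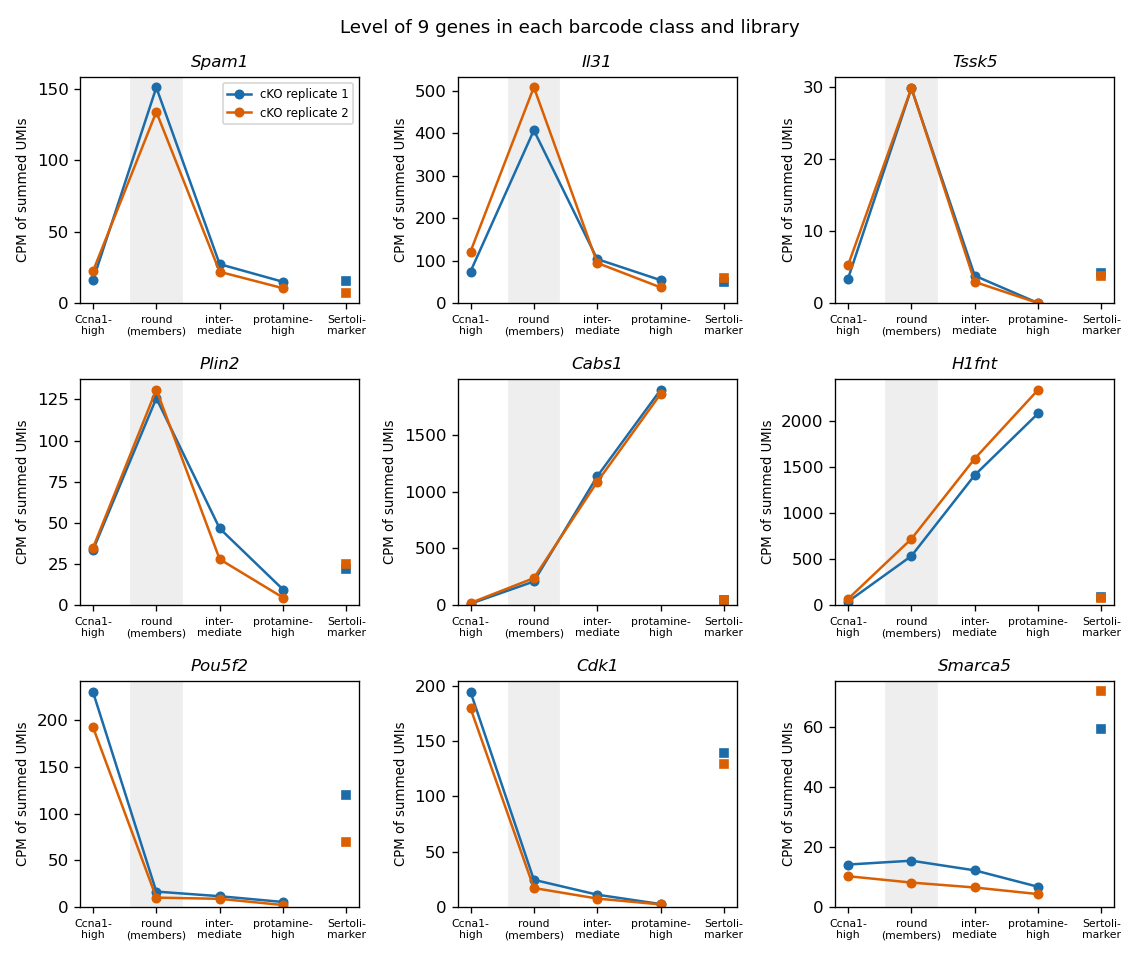
CPM of 9 genes (y axis, linear, from 0) in Ccna1-high spermatocytes, round spermatids (shaded), intermediate spermatids and protamine-high spermatids, with 1 point per cKO sample and squares for Sertoli-marker barcodes. Spam1, Il31, Tssk5 and Plin2 peak in round spermatids, Cabs1 and H1fnt climb to their highest values in protamine-high spermatids, Pou5f2 and Cdk1 drop after the spermatocytes, and Smarca5 lies below its squares in all 4 classes.

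The round spermatids were not uniform. Split by protamine share into 3 bins (under 0.1%, 0.1 to under 0.3%, 0.3 to under 1%), they numbered 160, 397 and 238 in replicate 1 and 441, 501 and 279 in replicate 2, with median depths of 6412.5, 5148 and 5335 UMIs and of 7483, 7714 and 9292 UMIs. Leaving out the 4 genes that made the bins, 3671 of 13599 genes were higher (27%) and 2928 lower (21.5%) in the top than in the lowest bin; 2214 calls held without the replicate block. Without TMM the higher share of calls was 39.7%, against 55.6% with it, and the median of all genes was -0.31 without TMM and -0.07 with it. Of the genes that were higher, 1852 (50.4%) were above background, against 20.9% of all genes tested between the bins.

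The bins followed spermatid genes that had no part in them. Cabs1 stood at 22.0, 131 and 483 CPM from the lowest to the top bin of replicate 1, and at 36.0, 210 and 519 CPM in replicate 2 (4.30 ± 0.13 top over lowest, edgeR adjusted p = 4.9e-82). H2al3, an X-linked histone gene, stood at 5.50, 16.4 and 131 CPM and at 3.52, 20.3 and 122 CPM. The kinase Tssk6 stood at 5.50, 17.9 and 113 CPM and at 7.55, 52.1 and 237 CPM. All 3 rose from bin to bin in both samples. Of 28 fibrous sheath genes 25 were higher and 1 lower in the top than in the lowest bin, and of 29 acrosome genes outside the rule 19 were higher and 3 lower. The rule's own markers, which describe the choice, stood at 380, 578 and 639 CPM (Acrv1, replicate 1) and at 475, 783 and 876 CPM (replicate 2). Spam1 and Il31 were highest in the middle bin in both samples, with 171 and 152 CPM for Spam1.

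Genes of the divisions fell along the same bins, 24 of 31 lower and none higher. Of the 31 genes 2 were above background in round spermatids, against 20.9% of all genes tested between the bins. Aurka stood at 121, 51.8 and 41.1 CPM in replicate 1 and at 112, 40.8 and 17.7 CPM in replicate 2 (-1.94 ± 0.16, edgeR adjusted p = 5.2e-24). Pxt1, a testis gene linked to germ cell death in mice, stood at 174, 108 and 51.0 CPM and at 201, 84.0 and 36.9 CPM. The chaperone Hspa5 stood at 319, 161 and 97.1 CPM and at 222, 74.3 and 49.8 CPM. Ssxb1, an X-linked gene of a multicopy family, fell too, with 22.8, 16.4 and 0.62 CPM and 24.9, 5.52 and 1.5 CPM. Ccna1, limited to 1 UMI a cell by the rule, stood at 47.1, 42.1 and 25.5 CPM and at 53.9, 31.0 and 20.1 CPM. Median mitochondrial shares moved with the bins, at 0.510%, 0.361% and 0.173% and at 0.191%, 0.118% and 0.0847%. The Sertoli gene Cst9 stood at 3.93, 9.31 and 16.8 CPM and at 7.80, 8.48 and 6.89 CPM, so it rose along the bins in replicate 1 only. The part of either in the gene differences was not tested.

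**Figure D4:**
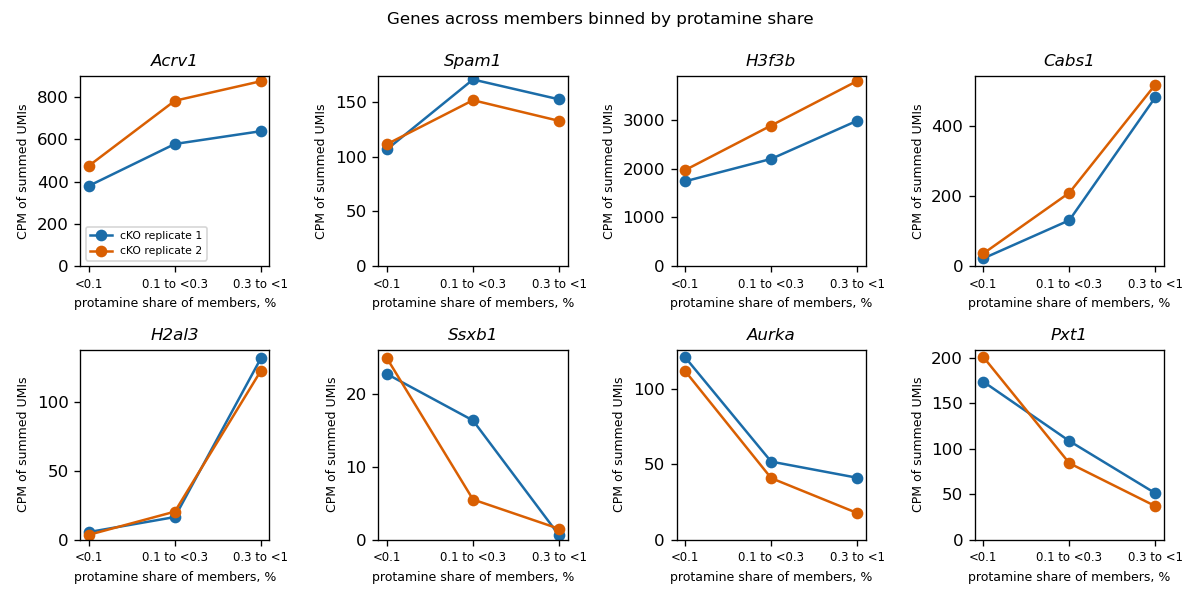
CPM (y axis, linear, from 0) of 8 genes in round spermatids of 3 bins of protamine share (x axis, percent of UMIs), 1 line per cKO sample. Acrv1, H3f3b, Cabs1 and H2al3 rise with the share in both samples, Ssxb1, Aurka and Pxt1 fall, and Spam1 is highest in the middle bin.

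Sex-linked genes distinguished round spermatids from the spermatocytes sharply. Meiotic silencing shuts down the X and Y chromosomes in pachytene, and some of their genes are transcribed again in spermatids. X-linked genes supplied 1.05% and 1.25% of UMIs in round spermatids, 0.224% and 0.310% in Ccna1-high spermatocytes, 1.82% and 1.92% in intermediate spermatids and 1.02% and 2.46% in Sertoli-marker barcodes. Y-linked genes supplied 0.0366% and 0.0335% in round spermatids, 0.00793% and 0.00835% in Ccna1-high spermatocytes, 0.0358% and 0.0257% in intermediate spermatids and 0.0123% and 0.0127% in Sertoli-marker barcodes. Of 368 tested X-linked genes 301 were higher (81.8%) and 2 lower in round spermatids than in Ccna1-high spermatocytes, and of 33 Y-linked genes 32 were higher, against 35.5% of autosomal genes. With each barcode thinned to 2000 UMIs, which left out 49 and 50 shallower round spermatids, 0.268% and 0 of the round spermatids had no X-linked UMI, against 23.2% and 19.2% of Ccna1-high spermatocytes. At that depth 50% and 46.4% of round spermatids had a Y-linked UMI, against 9.82% and 10.54% of Ccna1-high spermatocytes.

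The X-linked spermatid genes that were higher included structural and redox genes. Cylc1, of the head cytoskeleton, had 118 and 94.2 CPM in round spermatids, against 11.3 and 11.4 CPM in Ccna1-high spermatocytes, and Prdx4, a peroxiredoxin of the secretory pathway, had 183 and 262 CPM against 24.9 and 34.4 CPM. Of the 34 tested genes of the X-linked list 30 were higher and none lower. Against intermediate spermatids 18 of 34 genes of the list were lower and 4 higher, and without TMM 14 were lower and 7 higher. Over all 368 X-linked genes 38.0% were lower and 17.9% higher, against 24.1% and 24.5% of autosomal genes. On the Y, Eif2s3y, a translation initiation gene, had 90.4 and 74.2 CPM in round spermatids and 18.7 and 21.2 CPM in Ccna1-high spermatocytes. Sly, a multicopy regulator of sex-linked transcription in mouse spermatids, had 14.4 and 10.1 CPM in round spermatids, against 2.27 and 1.44 CPM in Ccna1-high spermatocytes, and Ssty2, also multicopy, 11.5 and 16.9 CPM against 1.70 and 4.03 CPM. Reads of Sly and Ssty2 can be split among near-identical copies, so these values are uncertain.

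**Figure D5:**
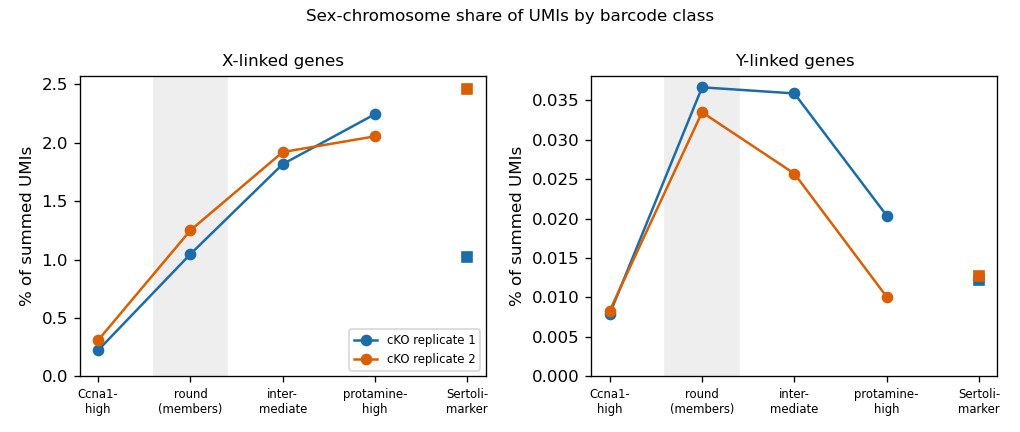
Percent of summed UMIs (y axes, linear, from 0) from X-linked and from Y-linked genes in 4 classes of cells, round spermatids shaded, with 1 point per cKO sample and squares for Sertoli-marker barcodes. The X share climbs from at most 0.310% in Ccna1-high spermatocytes to at least 2.06% in protamine-high spermatids. The Y share is highest in round spermatids, but in replicate 1 it is close to that of intermediate spermatids (0.0366% and 0.0358%). In replicate 1 thinned to 2000 UMIs, 50% of round and 51.3% of intermediate spermatids had a Y-linked UMI.

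A haploid spermatid carries an X or a Y chromosome, but transcripts are shared between sister spermatids through cytoplasmic bridges. Round spermatids of at least 2000 UMIs were divided into 438 and 739 with at least 2 Y-linked UMIs and 132 and 194 with none. Since Y-linked genes supplied only 0.0366% and 0.0335% of round spermatid UMIs, a cell near 2000 UMIs can lack a Y-linked UMI by sampling alone. The classes therefore cannot tell X-bearing from Y-bearing cells, and their X-linked levels decide nothing on sharing. X-linked transcripts stood at 11151 and 13254 CPM in the cells with Y transcripts, against 7810 and 10310 CPM in the cells without. Depth differed between these classes, with medians of 6973 and 10244 UMIs against 4025 and 5051.5 UMIs. With classes set after thinning to 2000 UMIs, X-linked transcripts stood at 11303 and 12048 CPM in 373 and 543 cells with a Y-linked UMI, against 10024 and 11346 CPM in 373 and 628 cells without. Of 12348 genes, 1624 were higher (13.2%) and 1148 lower (9.3%) in the cells with Y transcripts; without TMM the higher share of calls was 45.2%, against 58.6% with it. With edgeR and no replicate block none was called, though 1620 had an unadjusted p under 0.05, and DESeq2 called 793. Of 269 X-linked genes 63 were higher and 6 lower, with a median log2 fold change of 0.33, against -0.08 for autosomal genes. With classes set after thinning 1 of 172 X-linked genes was higher and none lower. Calls over all genes were few there too, with 102 higher and 91 lower of 8624. The X-linked median was then 0.15 and the autosomal one -0.01, so the fall in calls was not particular to X-linked genes.

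Smarca5 itself was scarce in round spermatids. It had 15.5 CPM (95% Poisson interval 12.4 to 19.1, 86 UMIs) and 8.16 CPM (6.64 to 9.91, 101 UMIs), against 14.2 and 10.3 CPM in Ccna1-high spermatocytes and 12.2 and 6.52 CPM in intermediate spermatids. Sertoli-marker barcodes had 59.3 and 71.9 CPM and free RNA 43.6 CPM, so the level in round spermatids was below that of free RNA in replicate 1, the only sample where it was measured; Sertoli cells are somatic and may express the gene themselves. Neither comparison passed the test (-0.31 ± 0.22 over Ccna1-high spermatocytes, edgeR adjusted p = 0.19; 0.04 ± 0.22 over intermediate spermatids, edgeR adjusted p = 0.91). The first of these was called lower without doublets (-0.95, edgeR adjusted p = 0.00101) and with at least 10 marker UMIs (-0.52, edgeR adjusted p = 0.0412), and was 0.28 in replicate 1 alone and -0.57 in replicate 2 alone. Between protamine bins Smarca5 was called lower in the top than in the lowest bin. From the lowest bin up it had 24.3, 13.0 and 12.4 CPM in replicate 1 and 12.6, 5.72 and 6.59 CPM in replicate 2. That call was lost with DESeq2, without doublets, without the replicate block and after thinning. A 3′ count does not show whether the deleted part of the gene is in the transcript, and with no wild-type cells the level cannot be set against a normal one.

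Of 13 tested ISWI subunit genes 4 were higher (30.8%) and 5 lower (38.5%) than in Ccna1-high spermatocytes, near the 37.9% and 35.9% of all tested genes, and none of the higher ones was above background. Baz1a, the ACF1 partner of SMARCA5, had 90.4 and 36.4 CPM in round spermatids, against 213 and 92.7 CPM in Ccna1-high spermatocytes and 153 and 87.4 CPM in intermediate spermatids, and was called lower against both (-1.45 ± 0.15 and -1.31 ± 0.15). Rbbp4, a histone-binding subunit, had 55.0 and 32.9 CPM in round spermatids and 114 and 86.2 CPM in Ccna1-high spermatocytes. Rsf1, the partner of SMARCA5 in the RSF complex, was higher, with 45.3 and 24.2 CPM in round spermatids, against 15.3 and 11.3 CPM in Ccna1-high spermatocytes, a call that was lost after thinning (edgeR adjusted p = 0.0741).

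Summed levels of markers of other testis cells were higher in round spermatids than in the spermatocytes in both samples. Both classes were limited to 1 UMI of Cst9 and Cst12 a cell, which is a smaller share of UMIs in the deeper spermatocytes. The part of this limit in the differences was not tested. The 15 Sertoli genes outside the rule summed to 85.3 and 108 CPM in round spermatids, 42.5 and 57.0 CPM in Ccna1-high spermatocytes and 3156 and 12180.5 CPM in Sertoli-marker barcodes, with Sox9 at 0 in replicate 1. The 11 Leydig genes summed to 428 and 1112 CPM in round spermatids and 51.0 and 582 CPM in Ccna1-high spermatocytes, against 647 CPM in free RNA of replicate 1. The 12 peritubular and stromal genes summed to 95.9 and 112 CPM in round spermatids, against 34.0 and 41.1 CPM in Ccna1-high spermatocytes, and the 12 macrophage genes to 69.0 and 118 CPM against 16.4 and 88.4 CPM. Of the tested markers 9 of 11 Sertoli, 8 of 9 Leydig, 6 of 9 stromal and 2 of 8 macrophage genes were called higher, against 37.9% of all tested genes. None of the Sertoli, Leydig and macrophage genes called higher was above background. For the Sertoli genes this follows from the choice of the Sertoli-marker barcodes and shows nothing further. Among stromal genes 2 were above background, Lum being 1 of them. Lum had 39.5 and 41.8 CPM in round spermatids, against 6.23 and 5.25 CPM in Ccna1-high spermatocytes and 8.28 and 4.29 CPM in Sertoli-marker barcodes. The Leydig hormone gene Insl3 had 68.3 and 285 CPM in round spermatids, against 9.07 and 135 CPM in Ccna1-high spermatocytes and 239 and 1038 CPM in Sertoli-marker barcodes. The part of free RNA in the other comparisons was not tested.

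The last question was whether genes that rise in round spermatids already had an accessible start in earlier germ cells, and whether that differed by genotype. Of the 200 genes with the largest fold over Ccna1-high spermatocytes only 148 had an annotated start, too few to stand for the set, so a set of 200 genes with a start and a level above background was added after seeing the data. A peak within 500 bases of the start was found for 35% and 35.5% of these genes in cKIT+ cKO libraries, against 23.5% and 32.5% in cKIT+ wild-type libraries (35.25% ± 0.35 and 28% ± 6.36, SD, n = 2 each; exact two-sided permutation p = 0.333, the smallest that 2 against 2 can give). In 4C-sorted cells the shares were 28% and 29.5% in cKO and 28% and 24.5% in wild type (28.75% ± 1.06 and 26.25% ± 2.47, n = 2 each; exact p = 0.667). Without wild-type replicate 1 the cKO minus wild-type difference in cKIT+ cells was 2.75 points and without wild-type replicate 2 it was 11.75, against 7.25 with all libraries; in 4C-sorted cells these were 4.25 and 0.75, against 2.5. Over the 14783 genes tested that have a start, the shares were 79.7% and 78.6% in cKIT+ cKO, 70.1% and 77.8% in cKIT+ wild type, 76.7% and 77.6% in 4C-sorted cKO and 75.5% and 75.7% in 4C-sorted wild type. A strand was given for 159 of the 200 genes of the set and for 11915 of these 14783. For genes without one, a peak near either annotated end of the gene was counted, so some counted peaks may lie at the 3′ end. The cKIT+ wild-type library with the lowest share for the set, replicate 1, also had the lowest share for all genes. With only peaks of −log10 q of at least 5, mean shares for the set were 20% in cKIT+ cKO and 9.75% in cKIT+ wild type. In 4C-sorted cells they were 10.5% in cKO and 10% in wild type. Over all genes with a start these means were 70.0% and 57.4% in cKIT+ cells, and 63.3% and 64.8% in 4C-sorted cells (cKO and wild type).

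Between the sorts, pooled over genotypes, a peak at the start of these genes was found for 27.5% ± 2.12 in 4C-sorted and 31.6% ± 5.57 in cKIT+ cells (SD, n = 4 each; difference -4.13 points, exact two-sided permutation p = 0.229). For the 148 genes of the first set it was 24.0% ± 2.62 and 31.6% ± 7.53 (difference -7.60 points, exact p = 0.114), and over all genes tested the difference was -0.13 points (exact p = 0.971). None of these passed the test, which does not show equal shares. Of the 200 genes, 95 had a peak in none of the 8 libraries and 23 in all. In cKIT+ cells 6 genes had a peak in each cKO library but in no wild-type one, and 1 gene the reverse. In 4C-sorted cells these numbers were 5 and 4. Such patterns were not counted over all genes with a start, so these numbers have no background and measure no genotype difference. Over all those genes the cKIT+ wild-type shares were 70.1% and 77.8%, against 79.7% and 78.6% in cKIT+ cKO. The set was chosen by transcript level in cKO cells, and no ATAC library of spermatids was analysed here.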

How the data were processed

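For both single-cell samples the authors deposited UMI counts that had not been normalized. Per the file headers, replicate 1 came from Cell Ranger 7.1.0 (987771 barcodes with no filter on cells, 63605819 UMIs) and replicate 2 from 9.0.1 (17744 barcodes, 115830234 UMIs); mm10 and, with no role stated, Seurat 4.1.0 stand in the submitters' processing notes. Each ATAC peak list was called per library by the authors with MACS2 after cutadapt and Bowtie2, per the submitters' processing notes, whose settings are not given in the sources used here. The deposited lists hold, for every peak, a fold enrichment (a ratio), a score and −log10 p and q values; the score was not used. Depth is unknown for these lists.

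The rule for round spermatids, their neighbours and the gene lists were chosen with earlier results of these data known. Scrublet in scanpy 1.11.5 called doublets per sample. UMIs were summed per sample and class and tested with the quasi-likelihood test of edgeR 4.0.16 (filterByExpr, TMM), two-sided, with Benjamini-Hochberg adjustment over all genes tested. The sample was a block because the classes of a sample come from the same suspension, so same-numbered sums are the same library. The 11 rule genes, the 4 protamine genes or Y-linked genes stayed out of the fits' calls where they made the classes. SE is the absolute log2 fold change over the square root of F. The test was tried on simulated counts with known changes. Named genes were the 12 with the largest change each way (at least 100 CPM in the higher group, same sign in both samples), the 10 with the largest smaller fold over both neighbours, the 20 highest, up to 5 a list, and Smarca5. CPM are counts scaled to 1e6 per class sum; CPM and sums carry counting error only. Alternatives were DESeq2 1.42.0, no filter, no block, no TMM, thinning to 2000 UMIs, doublets removed and other limits of the rule. Promoters and starts came from RefSeq tables of GRCm38.p6, the assembly that mm10 corresponds to. Where no strand was given, both annotated ends of a gene were taken as starts. Of 32285 genes 26700 had a chromosome.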

Additional observations from a re-analysis of the deposited data

How the results depend on the processing

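Over 154 pairs of a named gene and a comparison, none changed direction where it was called, in 1011 of the values under another setting the call was the same, in 30 it was lost and in 5 gained. In 308 values with 1 sample left out the direction held where the gene was called. Genes named for the size of their change had to have the same sign in both samples. For those genes this outcome was fixed by the choice and shows nothing further. The number of genes called between round spermatids and Ccna1-high spermatocytes was 11865, and 6257 after thinning to 2000 UMIs, where 10637 genes could be tested. Against intermediate spermatids it was 7801, with 3897 without the replicate block and 4747 after thinning. Between protamine bins it was 6599, with 2214 without the block, 4145 with DESeq2 and 3205 after thinning. Between cells with and without Y-linked UMIs it was 2772, with 0 without the block, 793 with DESeq2, 1043 after thinning, 1093 in the middle protamine bin only and 193 with classes set after thinning. The last 2 settings, the scaling without TMM and the second promoter set were added after seeing the data. No count could be fitted without a replicate, since no residual degrees of freedom remain. The mean share of round spermatids was 9.19% of kept barcodes, 6.77% with at least 10 marker UMIs, 11.4% with at least 3, 6.33% with no Ccna1 UMI and 11.6% of barcodes of at least 2000 UMIs. For the 148 genes with a start in the first promoter set, cKO minus wild type was 1.35 points in 4C-sorted cells (-1.69 to 4.39 with 1 library left out, and -1.69 without wild-type replicate 1) and 10.47 points in cKIT+ cells (5.07 to 15.9); with labels exchanged only within replicate numbers (replicate block) the exact p was 1 and 0.5. The cause of these changes was not tested. Depth limits genes under a few CPM. For a gene at or below its level in Sertoli-marker barcodes, these counts do not tell spermatid transcripts from free RNA. Sertoli-marker barcodes may also hold transcripts of their own, and the part of each was not tested.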
